A study of Mus musculus with 9 samples.

Results

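The genes reported here are those that license and copy chromosomal DNA. They make the origin recognition complex, the factors that load the MCM helicase, the helicase core, the proteins that fire origins, the polymerases with their primase, the sliding clamp with its loader, the proteins that cover single-stranded DNA, the enzymes that finish Okazaki fragments and the enzymes that supply deoxynucleotides. The list was drawn up from known function, but with earlier results of these data known. It holds 46 genes, each matched by its symbol to the gene names of the array. The array carried 37316 named genes, of which 29410 were tested, and all 46 members were among the genes tested. All 46 were also present in the deposited log2 table of 27275 gene names.

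Megakaryocytes (mMKs) were enriched from the bone marrow of male wild-type C57BL/6 mice by selecting first for CD41 and then for CD42d on the cell surface. The mice received a total body dose of 5 Gy of gamma rays from a cobalt source (ionizing radiation, IR) and mMKs were taken at 1 day or 3 days post IR (dpi), while control mice (Ctrl) were sham-irradiated. RNA was measured on 9 single-colour Agilent arrays, 3 for each of the 3 groups, although the methods text describes an Affymetrix chip, and neither the strain nor the age of these mice is in the sample labels. By the design text the 3 arrays of a group come from independent experiments with different donors, which is the basis of the replicates and of every p-value given here.

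Megakaryocytes become polyploid by endoreplication, which is DNA synthesis without cell division, so they draw on the replication machinery while they mature. In dividing cells much of this machinery is transcribed under E2F factors as S phase begins, and p53 can hold that programme down after DNA damage. The comparisons address how the transcripts of this machinery stood at each time after IR against Ctrl, and whether the time points differed, in relation to all genes.

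The share of spots well above background was 69.07%, 79.45% and 80.79% on the Ctrl arrays, 72.31%, 74.81% and 75.59% at 1 dpi, and 81.76%, 81.63% and 81.84% at 3 dpi. Ctrl replicate 1 had the lowest share of the 9 arrays and was alone on slide 1 and in scan 1, whereas the other 8 arrays shared slide 2 and scan 2. What belongs to the slide, to the scan and to that sample cannot be told apart. No spot was saturated on any array. All 46 members were well above background on all 9 arrays, and so were all 20 megakaryocyte marker genes. All 13 neutrophil precursor, 12 macrophage and 11 stromal markers were detected on every array as well, so detection does not check the labels. Levels are given as log2 signal minus the 75th percentile of the array, always in the order of the replicates, and differences as log2 fold changes. With 3 arrays against 3, the smallest exact two-sided permutation p is 0.1, so the p-values come from limma, which pools the spread across genes, and are adjusted over all genes tested. A gene was called when it differed 2-fold or more and its adjusted p was under 0.05, and it passed, at any fold change, when its adjusted p was under 0.05. The number of arrays limits the precision of every value.

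For 38 of the 46 members a promoter of 300 bases around the transcription start was available in the GRCm38.p6 RefSeq set. None was available for Mcm4, Gmnn, Rfc2, Prim2, Pole, Gins1, Gins2 or Gins4. The sequences were searched on both strands, with overlapping matches counted, for 4 E2F sites of 8 bases, for the CCAAT box and for the CHR element TTTGAA. At least 1 E2F site was present in 13 of the 38 member promoters (34.2%) against 744 of all 32851 promoters (2.26%). The site TTTCCCGC was found in 7 members (18.4% against 1.07% of all promoters), TTTGGCGC in 6 (15.8% against 0.514%), TTTCGCGC in 5 (13.2% against 0.323%) and TTTGCCGC in 0 (0.441% of all promoters). The 13 genes were Mcm3, Mcm5, Mcm6, Mcm7, Cdc6, Cdt1, Orc1, Orc3, Rfc3, Pola1, Pold1, Pole2 and Gins3. A CCAAT box was present in 22 members (57.9%) against 37.4% of all promoters. The CHR element was present in 6 members (15.8%, against 17.9% of all promoters), which were Mcm2, Gins3, Cdc45, Fen1, Cdc7 and Dbf4. A match describes the sequence and carries no evidence of binding in these cells. The promoters of a licensing gene, a helicase gene, the clamp gene and a nucleotide synthesis gene are shown, with matches to these motifs in capitals. Cdc6 (chr11:98907901-98908200, plus strand) holds 1 E2F site, read on the opposite strand. Mcm5 (chr8:75109259-75109558, plus strand) holds 2 overlapping E2F sites and 3 CCAAT boxes. Pcna (chr2:132253131-132253430, minus strand) and Rrm2 (chr12:24708004-24708303, plus strand) hold 1 CCAAT box each.
Cdc6: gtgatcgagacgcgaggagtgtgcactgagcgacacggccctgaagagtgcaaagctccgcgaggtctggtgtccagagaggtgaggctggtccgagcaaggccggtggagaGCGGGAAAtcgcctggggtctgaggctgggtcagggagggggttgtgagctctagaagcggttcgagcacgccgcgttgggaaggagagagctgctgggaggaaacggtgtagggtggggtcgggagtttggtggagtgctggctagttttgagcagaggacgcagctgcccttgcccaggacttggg
Mcm5: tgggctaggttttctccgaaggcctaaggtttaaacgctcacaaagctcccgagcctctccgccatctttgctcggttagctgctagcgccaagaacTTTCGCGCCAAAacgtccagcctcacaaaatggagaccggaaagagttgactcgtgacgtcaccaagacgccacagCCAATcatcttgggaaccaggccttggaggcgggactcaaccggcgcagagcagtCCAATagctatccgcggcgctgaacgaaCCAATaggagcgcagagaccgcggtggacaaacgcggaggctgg
Pcna: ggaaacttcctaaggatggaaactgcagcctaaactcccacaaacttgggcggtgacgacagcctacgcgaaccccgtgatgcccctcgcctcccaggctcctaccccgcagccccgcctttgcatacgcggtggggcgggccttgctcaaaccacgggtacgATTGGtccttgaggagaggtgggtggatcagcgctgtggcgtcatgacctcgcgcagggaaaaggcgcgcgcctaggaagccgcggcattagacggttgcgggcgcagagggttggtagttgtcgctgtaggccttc
Rrm2: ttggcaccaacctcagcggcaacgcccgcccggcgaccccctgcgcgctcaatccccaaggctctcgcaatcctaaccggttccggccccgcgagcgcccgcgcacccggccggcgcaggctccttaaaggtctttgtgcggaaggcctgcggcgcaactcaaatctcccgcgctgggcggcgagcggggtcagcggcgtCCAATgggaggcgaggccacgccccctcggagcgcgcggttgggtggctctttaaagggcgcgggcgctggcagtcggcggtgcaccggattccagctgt

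At 1 dpi most replication genes stood a little below Ctrl. The typical gene on the array stood above Ctrl with the scaling used here, the 75th percentile, at a median log2 fold change of 0.25, but near it with the other scalings, at 0.03 with the array median and 0.00 after quantile normalization. Those scalings give the arrays a common median or distribution, so a value near 0 is built into them. Of the 46 members, 22 were lower (21.1% of all genes tested were) and 3 were higher (34.8% of all genes were) at an adjusted limma p under 0.05 with no minimum fold change, a count taken up as a result after the data were seen. In the brightest of 4 equal classes of genes by level, also looked at afterwards, 17 of 36 members were lower (27.8% of all genes in it) and 2 higher (31.3%). The differences were small, with 1 member at least 2-fold lower, Cdc7 (2.87% of all genes tested), and 0 at least 2-fold higher (12.3% of all genes). The lower genes came from 8 of the 9 role groups, and the 3 higher ones were Mcm5, Rpa1 and Rpa2. Over all genes, limma called 3623 higher and 845 lower.

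At an unadjusted limma p under 0.05, 4 members were higher (39.3% of all genes) and 23 lower (22.8%) at 1 dpi. By an unadjusted Student test 7 were higher (31.2% of all genes by that test) and 24 lower (22.1%) without a minimum fold change, and with it 0 higher (3135 of all 29410 genes) and 1 lower (811 of all genes). In 25 members every 1 dpi array lay below every Ctrl array (25.2% of all genes), and in 8 every 1 dpi array lay above (42.3%). The median log2 fold change was -0.17 for the members and 0.25 for all genes, a gap of -0.42, and the gap was -0.25 after quantile normalization, -0.24 after background modelling with quantile normalization, -0.28 in the deposited table, -0.34 over genes well above background on all 9 arrays and -0.56 with no filter on dim probes. With the 75th percentile and the filter, 45 of the 46 members lay below the median of all genes. The middle of the members ran from -0.38 to 0.00 between the quartiles, and their whole range from -1.005 to 0.39. For 44 of the 46 members the 95% interval of the log2 fold change lay within 2-fold of no change (95.7%, against 57.6% of all genes and 67.2% of genes well above background on all 9 arrays). The median SE was 0.07, 0.12 and 0.10 in these sets, so the shares also depend on precision, and none is matched for level. Array by array, the member median minus the median of all genes was 0.11, -0.05 and -0.06 in Ctrl, and -0.45, -0.39 and -0.43 at 1 dpi. Without Ctrl replicate 1 the gap was -0.28 in place of -0.42, and without it or without 1 dpi replicate 1 the count of members at least 2-fold lower was 0 in place of 1.

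The scaling of the arrays moved the median of all genes, so member changes are best read relative to it. Over all genes, higher genes made up 81.1% of the calls with the 75th percentile, 59.4% with the array median, 56.3% after quantile normalization, 68.7% after background modelling with quantile normalization and 50.3% in the deposited table. Members higher and lower at an adjusted limma p under 0.05 numbered 0 and 26 with the array median (23.7% and 27.2% of all genes), 2 and 27 after quantile normalization (23.2% and 28%), 3 and 26 after background modelling (24.1% and 28.5%), and 4 and 21 in the deposited table (18.4% and 21.9%). By limma with the array median, 0 members were at least 2-fold higher (8.07% of all genes) and 2 at least 2-fold lower (5.51%). The higher share of the members so counted was 12% with the 75th percentile and 0% with the array median. Without Ctrl replicate 3, any 1 of the 1 dpi arrays or 3 dpi replicate 2, 1 member in place of 3 was higher. Arrays of bulk cells cannot tell fewer cells of a kind from less RNA per cell. The members were also brighter than most genes: in a look chosen after the data were seen, 36 of them fell in the brightest of 4 equal classes of genes, where the median log2 fold change was 0.02 for all genes and -0.17 for members, and 9 in the next, where it was -0.04 and -0.13. At an adjusted limma p under 0.05, 17 of the 36 were lower (27.8% of all genes in that class) and 2 higher (31.3%). In the next class 4 of the 9 were lower (36.2%) and 1 higher (30.8%).

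At 3 dpi the replication genes stood close to Ctrl. With no minimum fold change, 6 of the 46 members were higher (16.9% of all genes tested) and 7 lower (15.1%) at an adjusted limma p under 0.05. The higher genes were Orc1, Orc3, Cdc6, Gins2, Rrm1 and Rrm2, and the lower ones Cdc7, Pola1, Pola2, Prim1, Pold1, Pole and Rfc2. By limma 0 members were at least 2-fold higher (6.98% of all genes) and 0 at least 2-fold lower (1.82%). Over all genes, 2053 were called higher and 534 lower.

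At an unadjusted limma p under 0.05, 8 members were higher (22.7% of all genes) and 7 lower (18.9%) at 3 dpi, and an unadjusted Student test gave 8 and 8 without a minimum fold change (18.5% and 17.2% of all genes by that test) and 0 and 0 with it (6.85% and 1.82%). Every 3 dpi array lay above every Ctrl array in 10 members (26.3% of all genes) and below in 11 (20.8%). The median log2 fold change was 0.02 for the members and 0.11 for all genes, a gap of -0.09 that turned to 0.05 without Ctrl replicate 1 and was -0.0315 after background modelling and -0.16 with the mean of the probes of each gene, by which 11 members were lower in place of 7. The share of all genes that were lower with the mean of probes is not given. The member median itself was below 0 under the other scalings, at -0.12 with the array median and -0.03 after quantile normalization or background modelling. In the deposited table, which rests on another probe for 28 members, it was -0.11. In the brightest of the 4 level classes, chosen after the data were seen, the median was -0.01 for the 36 members and 0.03 for all genes. Of these members 4 were higher (17.3% of all genes in the class) and 6 lower (14.6%) at an adjusted limma p under 0.05. For all 46 members the 95% interval lay within 2-fold of no change, against 69.7% of all genes, whose median SE was larger (0.12 against 0.07). Array by array, the member median minus the median of all genes was -0.09, -0.08 and -0.11 at 3 dpi. With the array median as scaling, 1 member was higher and 7 were lower (11.3% and 16.9% of all genes), so the higher share of these members was 46.2% with the 75th percentile and 12.5% with the array median. By limma with that scaling, 0 members were 2-fold higher (6.22% of all genes) and 0 were 2-fold lower (2.65%). The higher share was 42.9% after quantile normalization, 40% after background modelling and 16.7% in the deposited table. Over all genes, the higher share of called genes was 79.4% with the 75th percentile and 70.1% with the array median, 71.5% after quantile normalization, 79.6% after background modelling and 66.1% in the deposited table. Without Ctrl replicate 2, Ctrl replicate 3 or 3 dpi replicate 2, 3 members in place of 6 were higher.

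Between 1 and 3 dpi the replication genes moved up more often than down by the brightest probe of each gene, which was the one used, but not by their other probes. At 3 dpi 23 of the 46 members were higher than at 1 dpi (19.8% of all genes tested) and 4 lower (24.9%), at an adjusted limma p under 0.05 with no minimum fold change. The 4 lower genes were Mcm5, Pola2, Pold1 and Rfc2. With the mean of the probes of each gene 16 members were higher and 11 lower, and the share of all genes in that setting is not given. Of the 50 unused member probes 12 were higher and 15 lower (18.6% and 27.5% of all probes that passed the filter). By limma 0 members were at least 2-fold higher (3.97% of all genes) and 0 at least 2-fold lower (4.82%), while over all genes 1169 were called higher and 1419 lower. The comparisons at 1 and 3 dpi share the Ctrl arrays, so their values are set side by side and the difference was tested directly.

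The unadjusted limma p under 0.05 held for 23 members higher (22.7% of all genes) and 6 lower (29.8%) between the time points, and an unadjusted Student test gave 23 and 6 (23.8% and 33.7% by that test). In 26 members every 3 dpi array lay above every 1 dpi array (27.1% of all genes), and in 8 below (38.5%). The median log2 fold change was 0.19 for the members and -0.11 for all genes, a gap of 0.30, and the gap was 0.18 after quantile normalization, 0.19 after background modelling, 0.17 in the deposited table, 0.18 with the mean of probes and 0.39 with no filter. With the 75th percentile and the filter, 8 of the 46 members lay below the median of all genes. In the same look by level, the brightest class held 36 members and the medians were closer, at 0.11 for members and -0.01 for all genes, and in the next, with 9 members, they were 0.46 and 0.01. At an adjusted limma p under 0.05, 17 of the 36 were higher (26.4% of all genes in that class) and 3 lower (27.5%). In the next class 6 of the 9 were higher (29.4%) and 1 lower (26.2%). With the array median as scaling 19 members were higher (18.9% of all genes) and 0 lower (18.8%), and 1 of them, Pole2, was at least 2-fold higher at 1.04 (4.71% of all genes), with 0 at least 2-fold lower (3.92%). The higher share of these members was 85.2% with the 75th percentile, 100% with the array median, 88.9% after quantile normalization, 87.1% after background modelling and 66.7% in the deposited table. Over all genes, the higher share of called genes was 45.2% with the 75th percentile, 54.6% with the array median, 62.9% after quantile normalization, 52.7% after background modelling and 60.3% in the deposited table. Without 1 dpi replicate 2 the log2 fold change of Pole2 was 1.09 and without 3 dpi replicate 1 it was 1.08, which made it 2-fold higher. Without Ctrl replicate 1 or 3 dpi replicate 1, 6 members in place of 4 were lower, and without 1 dpi replicate 1, 1 dpi replicate 2, 3 dpi replicate 2 or 3 dpi replicate 3, 2 were.

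**Figure D1:**
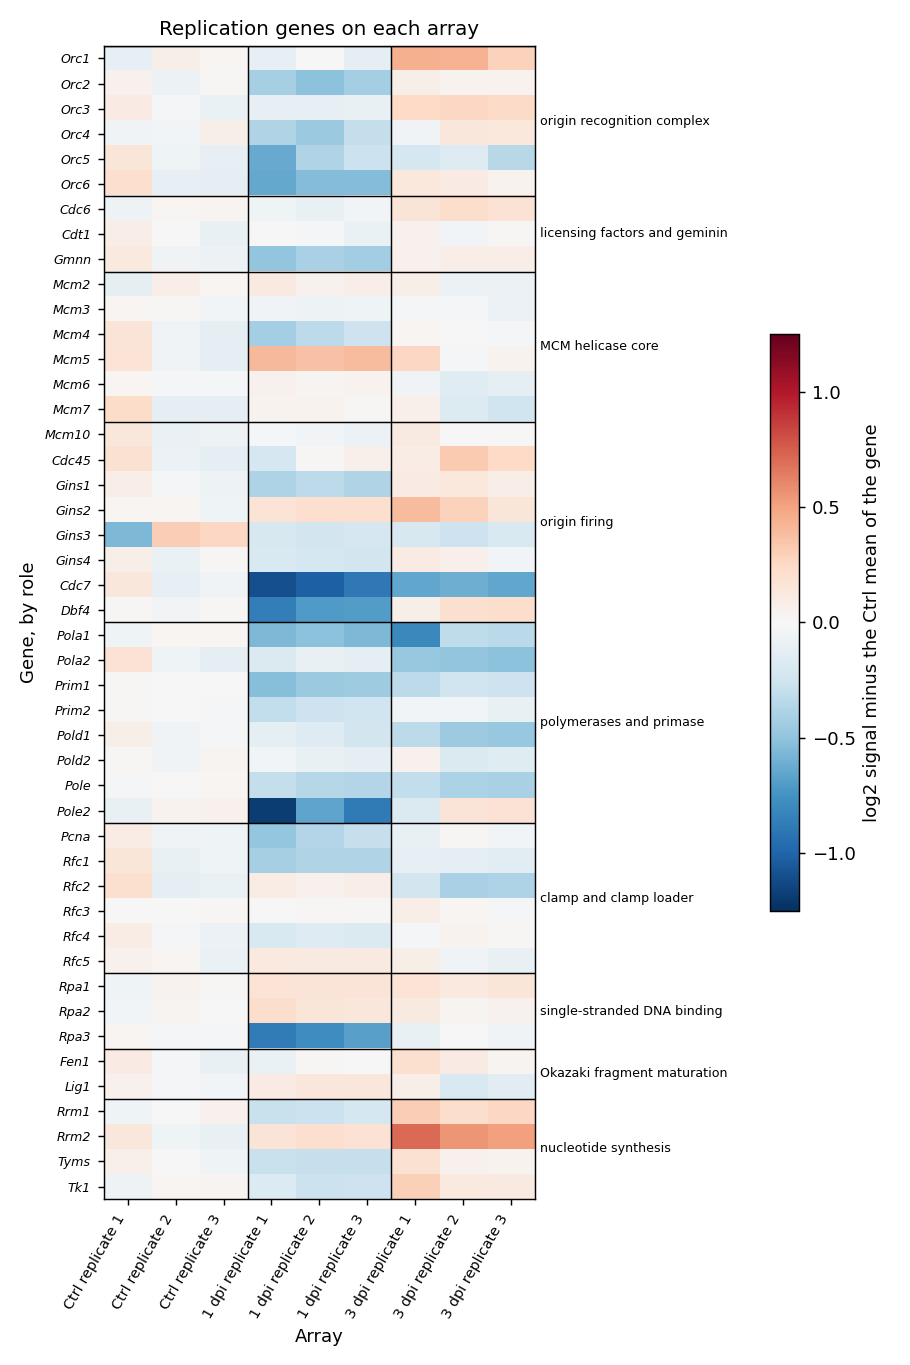
Log2 signal of each of the 46 members (rows, by role) on each of the 9 arrays (columns), minus the mean of the gene on the 3 Ctrl arrays, with 75th percentile scaling. The 1 dpi columns are mostly below 0 in the origin recognition, firing, primase and nucleotide genes, and the 3 dpi columns lie close to 0; with array median scaling Rpa1 and Rpa2 turn from above to below 0 at 1 dpi.

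**Figure D2:**
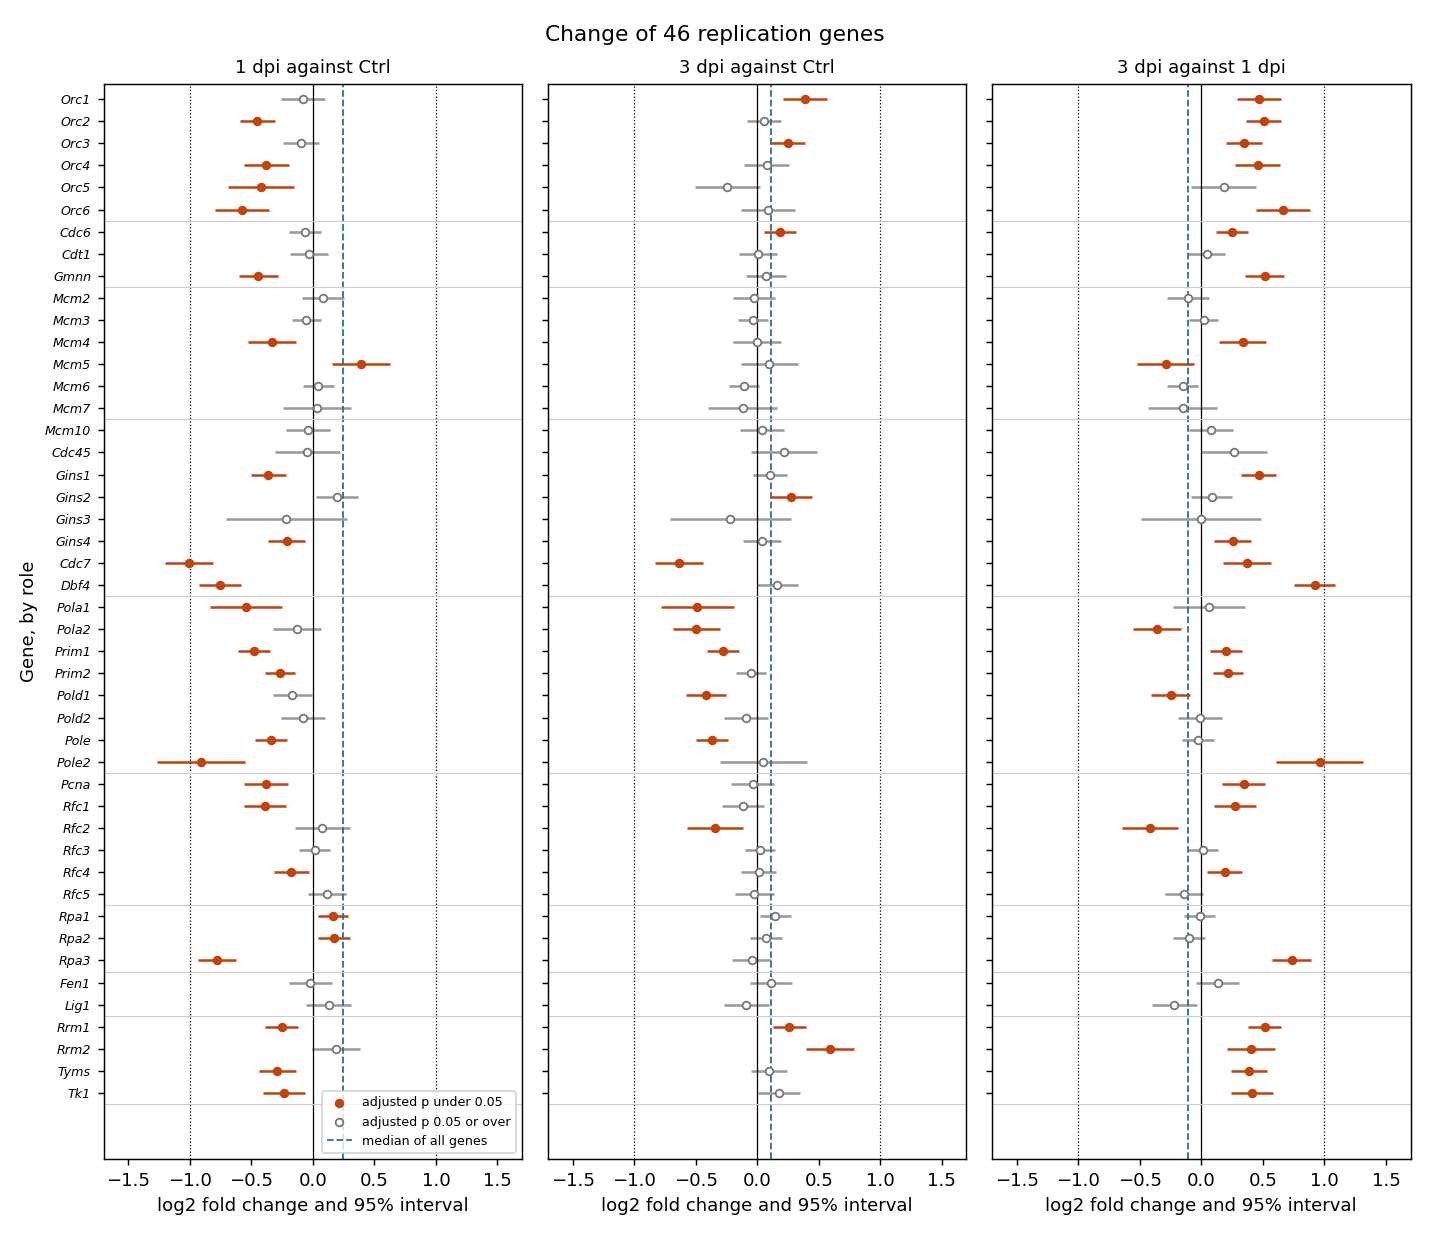
Log2 fold change of each member (vertical axis, by role) in the 3 comparisons, with the 95% interval from limma (3 arrays a group); filled points have an adjusted p under 0.05, the dashed line is the median of all genes and dotted lines mark 2-fold. Of the 46 members, 22 are filled below 0 and 3 above at 1 dpi, where array median scaling turns Rpa1 and Rpa2, and 23 are filled above 0 and 4 below between 1 and 3 dpi.

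The origin recognition complex binds origins and is the platform on which the helicase is loaded. The log2 level of Orc2 was 0.48, 0.36 and 0.44 in Ctrl, 0.01, -0.09 and 0.00 at 1 dpi, and 0.49, 0.47 and 0.47 at 3 dpi. That of Orc6 was 2.97, 2.67 and 2.66 in Ctrl, 2.13, 2.23 and 2.22 at 1 dpi, and 2.90, 2.86 and 2.81 at 3 dpi. In both genes the 1 dpi arrays lay below the 6 others, and the 3 dpi arrays overlapped Ctrl. The log2 fold change at 1 dpi was -0.45 for Orc2 (adjusted p 0.00057) and -0.57 for Orc6 (adjusted p 0.0016), and between 1 and 3 dpi it was 0.51 (SE 0.06, adjusted p 0.00048) and 0.66 (SE 0.09, adjusted p 0.0011). Against Ctrl at 3 dpi it was 0.05 for Orc2 (95% interval -0.08 to 0.19) and 0.09 for Orc6 (-0.13 to 0.31). In the deposited table, which rests on another probe of Orc2, that gene turned to 0.37 at 1 dpi (adjusted p 0.11) and to -0.54 between the time points, and with the mean of its probes it stood at -0.03 (adjusted p 0.81) and -0.04 (adjusted p 0.78). Orc1 had log2 levels of 0.06, 0.24 and 0.20 in Ctrl, 0.06, 0.16 and 0.05 at 1 dpi, and 0.61, 0.60 and 0.45 at 3 dpi. Its 3 dpi arrays were the highest, and Ctrl and 1 dpi overlapped. Orc1 differed by 0.39 at 3 dpi against Ctrl (adjusted p 0.0063) and by 0.46 against 1 dpi (adjusted p 0.0022), and its 1 dpi value was -0.08 (95% interval -0.26 to 0.10). With array median scaling the 3 dpi value of Orc1 was 0.25 (adjusted p 0.078). In the deposited table, which rests on another of its probes, it was 0.31 (adjusted p 0.16). Of the other subunits, Orc4 and Orc5 were lower at 1 dpi, by log2 fold changes of -0.38 and -0.42, and Orc4 was higher between 1 and 3 dpi at 0.46. Orc3 was higher at 3 dpi, at 0.25 against Ctrl and 0.35 against 1 dpi, and turned to -0.27 and -0.76 in the deposited table, which rests on another of its probes. Against Ctrl at 3 dpi Orc3 did not pass with array median scaling, where Rrm2 was the 1 member higher.

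Cdc6 and Cdt1 load the helicase onto origins, and geminin, the product of Gmnn, holds Cdt1 back after an origin has fired. Gmnn stood at log2 levels of 3.93, 3.76 and 3.73 in Ctrl, 3.31, 3.40 and 3.37 at 1 dpi, and 3.86, 3.88 and 3.88 at 3 dpi. That of Cdc6 was 0.70, 0.79 and 0.80 in Ctrl, 0.71, 0.67 and 0.73 at 1 dpi, and 0.92, 0.99 and 0.94 at 3 dpi. Gmnn was lowest on the 1 dpi arrays and overlapped between Ctrl and 3 dpi, whereas Cdc6 was highest on the 3 dpi arrays and overlapped between Ctrl and 1 dpi. The log2 fold change of Gmnn was -0.44 at 1 dpi (adjusted p 0.0012), 0.07 at 3 dpi (95% interval -0.09 to 0.23) and 0.51 between the time points (SE 0.07, adjusted p 0.00085). That of Cdc6 was -0.06 at 1 dpi (95% interval -0.19 to 0.07), 0.18 at 3 dpi (adjusted p 0.04) and 0.25 between the time points (adjusted p 0.0094). Cdc6 no longer passed at 3 dpi without any 1 of the 9 arrays, with log2 fold changes from 0.15 to 0.20 and adjusted p from 0.053 to 0.14. The same held with array median scaling (0.04, adjusted p 0.74) and with the mean of its probes (0.12, adjusted p 0.15). It also held in the deposited table, which rests on the other probe of Cdc6 (0.08, adjusted p 0.61). Cdc6 passed in 6 of 23 other settings. Cdt1 did not pass in any comparison, at -0.03, 0.01 and 0.04.

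The helicase core is a ring of the products of Mcm2 to Mcm7, which opens the double strand ahead of the fork. Mcm5 had log2 levels of 3.90, 3.68 and 3.61 in Ctrl, 4.14, 4.10 and 4.13 at 1 dpi, and 3.99, 3.72 and 3.78 at 3 dpi. That of Mcm7 was 4.93, 4.58 and 4.58 in Ctrl, 4.74, 4.74 and 4.71 at 1 dpi, and 4.77, 4.53 and 4.45 at 3 dpi. Mcm5 was highest on the 1 dpi arrays and overlapped between Ctrl and 3 dpi, and Mcm7 overlapped between all groups. By the brightest probe of each gene, Mcm5 was higher at 1 dpi, at a log2 fold change of 0.39 (95% interval 0.16 to 0.62, adjusted p 0.013), and it was lower between 1 and 3 dpi at -0.29 (adjusted p 0.047). Mcm5 no longer passed at 1 dpi after quantile normalization (0.23, adjusted p 0.056), with array median scaling (0.17, adjusted p 0.36) and in the deposited table (0.23, adjusted p 0.092). Nor did it pass between the time points without Ctrl replicate 2, any 1 dpi array, 3 dpi replicate 2 or 3 dpi replicate 3, with values from -0.30 to -0.24 and adjusted p from 0.067 to 0.15, and under each other scaling, with adjusted p from 0.084 to 0.3. For Mcm7 the log2 fold change was 0.03 at 1 dpi (95% interval -0.24 to 0.31) and -0.12 at 3 dpi (-0.40 to 0.16). The other probe of Mcm7, on which the deposited table rests, was higher at 1 dpi at 0.71 (adjusted p 4e-04) and lower between the time points at -0.81 (adjusted p 0.00032). Mcm4 was lower at 1 dpi, at -0.34 (adjusted p 0.011), and higher between the time points, at 0.33 (adjusted p 0.014). Mcm2, Mcm3 and Mcm6 did not pass in any comparison by the probes used, with 1 dpi values of 0.08, -0.05 and 0.05.

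Origins fire when the kinase Cdc7 with its activator Dbf4 acts on the loaded helicase and when Cdc45, Mcm10 and the GINS complex join it. The log2 level of Cdc7 (probe at chr5:107413296-107413355 of mm9) was 2.58, 2.34 and 2.40 in Ctrl, 1.35, 1.42 and 1.55 at 1 dpi, and 1.80, 1.83 and 1.79 at 3 dpi. That of Dbf4 (probe at chr5:8397489-8397548) was 0.03, -0.02 and 0.03 in Ctrl, -0.85, -0.69 and -0.68 at 1 dpi, and 0.09, 0.22 and 0.24 at 3 dpi. For Cdc7 the 3 groups did not overlap, with 3 dpi between the others, and for Dbf4 the 1 dpi arrays were lowest and the 3 dpi arrays highest. Cdc7 had the lowest log2 fold change of all members at 1 dpi, -1.005 (95% interval -1.20 to -0.81, adjusted p 6.1e-05), and at 3 dpi, -0.64 (adjusted p 0.00083), and it was higher between the time points at 0.37 (adjusted p 0.0089). With the mean of its probes the last value turned to -0.23 (adjusted p 0.04), and its other probe stood at -0.82. The 1 dpi value fell short of 2-fold without Ctrl replicate 1 or with slide or scan as a block (-0.93), without 1 dpi replicate 1 (-0.96), after quantile normalization (-0.9998) and with the mean of its probes (-0.20). Dbf4 gave a log2 fold change of -0.76 at 1 dpi (adjusted p 0.00012), 0.16 at 3 dpi (95% interval -0.00 to 0.33, adjusted p 0.13) and 0.92 between the time points (SE 0.07, adjusted p 8.5e-05). With the mean of its probes Dbf4 did not pass, at -0.13 at 1 dpi (adjusted p 0.23) and 0.06 between the time points (adjusted p 0.61), and another of its probes was lower between the time points at -0.59 (adjusted p 2e-04). The log2 level of the GINS gene Gins1 was 1.56, 1.46 and 1.41 in Ctrl, 1.08, 1.15 and 1.101 at 1 dpi, and 1.57, 1.60 and 1.56 at 3 dpi. It was lowest on the 1 dpi arrays, and the 3 dpi arrays overlapped the upper end of Ctrl. Gins1 differed by -0.36 at 1 dpi (adjusted p 0.0018), by 0.10 at 3 dpi (95% interval -0.04 to 0.24) and by 0.47 between the time points (adjusted p 0.00074). Gins4 was lower at 1 dpi, at -0.21, and higher between the time points, at 0.26, while Gins2 was higher at 3 dpi, at 0.28, with 0.20 at 1 dpi (95% interval 0.03 to 0.37, adjusted p 0.052). With array median scaling Gins2 did not pass at 3 dpi, where Rrm2 was the 1 member higher. Gins3, singled out after its values were seen, stood at a log2 level of 2.71, 3.57 and 3.52 in Ctrl, 3.07, 3.03 and 3.05 at 1 dpi, and 3.06, 3.01 and 3.07 at 3 dpi. Ctrl replicate 1 lay below and the other Ctrl arrays above all treated arrays, and Gins3 did not pass (95% interval at 1 dpi -0.71 to 0.27). Mcm10 and Cdc45 did not pass in any comparison by the probes used, at -0.04 each at 1 dpi and 0.04 and 0.22 at 3 dpi.

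DNA polymerase alpha with its primase starts each strand, and polymerases delta and epsilon extend it. The log2 level of Pole2, a subunit of polymerase epsilon, was 0.61, 0.74 and 0.75 in Ctrl, -0.49, 0.04 and -0.19 at 1 dpi, and 0.51, 0.86 and 0.88 at 3 dpi. That of Pola2, a subunit of polymerase alpha, was -0.49, -0.72 and -0.79 in Ctrl, -0.85, -0.76 and -0.79 at 1 dpi, and -1.14, -1.16 and -1.18 at 3 dpi. Pole2 was lowest on the 1 dpi arrays and overlapped between Ctrl and 3 dpi, and Pola2 was lowest on the 3 dpi arrays and overlapped between Ctrl and 1 dpi. Pole2 gave a log2 fold change of -0.91 at 1 dpi (95% interval -1.27 to -0.56, adjusted p 0.0018), 0.05 at 3 dpi (-0.30 to 0.41) and 0.96 between the time points (SE 0.15, adjusted p 0.0019). In the deposited table, which rests on the other Pole2 probe, these values turned to 4.03 at 1 dpi and to -3.05 between the time points, and with the mean of its probes to 1.58 and -1.04. Pola2 gave a log2 fold change of -0.13 at 1 dpi (95% interval -0.33 to 0.06), -0.49 at 3 dpi (adjusted p 0.003) and -0.36 between the time points (adjusted p 0.0098). The last did not pass with array median scaling, at -0.28 (adjusted p 0.15). Nor did it in the deposited table, which rests on another probe of Pola2, at -0.66 (adjusted p 0.15). Genes of the group that were lower at both times were Pola1 (-0.55 and -0.49), Prim1 (-0.48 and -0.28) and Pole (-0.34 and -0.37). Pold1 was lower at 3 dpi at -0.42, with -0.17 at 1 dpi (95% interval -0.33 to -0.01, adjusted p 0.073). Prim2 was lower at 1 dpi at -0.27 (adjusted p 0.0035), but stood at 0.11 in the deposited table, which rests on another of its probes. Between the time points Prim1 and Prim2 were higher, at 0.20 and 0.22, and Pold1 was lower, at -0.25, while Prim2 turned to -0.72 in the deposited table. With array median scaling Pold1 did not pass between the time points, where 0 members were lower. Pold2 did not pass in any comparison, at -0.08, -0.09 and -0.01. With 5 of its 8 genes lower at 3 dpi (15.1% of all genes were), this group had the lowest median at that time of the 9 role groups, -0.32.

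The sliding clamp PCNA holds the polymerases on DNA and is loaded by replication factor C, made of the products of Rfc1 to Rfc5. Rfc1 stood at log2 levels of 3.18, 2.95 and 2.98 in Ctrl, 2.63, 2.66 and 2.66 at 1 dpi, and 2.94, 2.93 and 2.90 at 3 dpi. That of Rfc2 was 4.30, 3.98 and 4.02 in Ctrl, 4.19, 4.15 and 4.19 at 1 dpi, and 3.87, 3.70 and 3.71 at 3 dpi. Rfc1 was lowest on the 1 dpi arrays, with 3 dpi just under Ctrl, and Rfc2 was lowest on the 3 dpi arrays and overlapped between Ctrl and 1 dpi. Rfc1 gave a log2 fold change of -0.39 at 1 dpi (adjusted p 0.0031), -0.12 at 3 dpi (95% interval -0.29 to 0.05) and 0.27 between the time points (adjusted p 0.019). Rfc1 no longer passed between the time points without 1 dpi replicate 1 (0.26, adjusted p 0.061), 1 dpi replicate 2 (0.28, adjusted p 0.052) or 3 dpi replicate 2 (0.27, adjusted p 0.061), or with array median scaling (0.35, adjusted p 0.071). Rfc2 stood at 0.08 at 1 dpi (95% interval -0.15 to 0.30), -0.34 at 3 dpi (adjusted p 0.03) and -0.42 between the time points (adjusted p 0.01). At 3 dpi it no longer passed without 1 dpi replicate 2 or 1 dpi replicate 3 (-0.34, adjusted p 0.051), 3 dpi replicate 2 (-0.31, adjusted p 0.1) or 3 dpi replicate 3 (-0.32, adjusted p 0.096), and between the time points it did not pass with array median scaling (-0.34, adjusted p 0.11). Over 23 other settings Rfc2 did not pass at 3 dpi in 6, with adjusted p up to 0.12, and its values ran from -0.48 to -0.24. Pcna and Rfc4 were lower at 1 dpi, at -0.38 and -0.18, and higher between the time points, at 0.34 and 0.19. By the probes used, Rfc3 and Rfc5 did not pass in any comparison, at 0.01 and 0.12 at 1 dpi, whereas both other probes of Rfc5 were higher at 1 dpi, at 0.69 (adjusted p 0.0056) and 0.75 (adjusted p 0.022).

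Replication protein A, of 3 subunits, covers single-stranded DNA. Rpa3 had log2 levels of 3.21, 3.17 and 3.17 in Ctrl, 2.30, 2.40 and 2.50 at 1 dpi, and 3.08, 3.19 and 3.13 at 3 dpi. That of Rpa1 was 3.45, 3.54 and 3.51 in Ctrl, 3.67, 3.66 and 3.66 at 1 dpi, and 3.67, 3.62 and 3.65 at 3 dpi. Rpa3 was lowest on the 1 dpi arrays and overlapped between Ctrl and 3 dpi, and Rpa1 was lowest on the Ctrl arrays. Rpa3 gave a log2 fold change of -0.78 at 1 dpi (adjusted p 7.6e-05), -0.05 at 3 dpi (95% interval -0.20 to 0.11) and 0.73 between the time points (adjusted p 0.00017). Rpa1 and Rpa2 were higher at 1 dpi, at 0.16 and 0.17 (adjusted p 0.032 each), but both turned with array median scaling, to -0.06 and -0.05. In the deposited table, which rests on another of its probes, Rpa2 stood at -0.45. Rpa2 did not pass without Ctrl replicate 3, any 1 dpi array or 3 dpi replicate 2, or with the replicate number as a block. Mcm5 was the 1 member still higher in these settings. Rpa1 no longer passed without Ctrl replicate 3, any 1 dpi array, 3 dpi replicate 2 or 3 dpi replicate 3, with adjusted p from 0.054 to 0.084 and values from 0.16 to 0.17, or after quantile normalization (0.06, adjusted p 0.41) or background modelling (0.06, adjusted p 0.43), and it passed and was higher in 9 of 23 other settings. At 3 dpi Rpa1 stood at 0.15 (95% interval 0.03 to 0.27, adjusted p 0.068) and Rpa2 at 0.07.

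Fen1 trims and Lig1 joins the Okazaki fragments of the lagging strand. Fen1 stood at log2 levels of 4.64, 4.53 and 4.45 in Ctrl, 4.46, 4.55 and 4.54 at 1 dpi, and 4.74, 4.64 and 4.58 at 3 dpi. That of Lig1 was 3.64, 3.56 and 3.55 in Ctrl, 3.69, 3.73 and 3.73 at 1 dpi, and 3.66, 3.39 and 3.44 at 3 dpi. For Fen1, Ctrl overlapped both other groups and 3 dpi lay just above 1 dpi, and Lig1 was highest on the 1 dpi arrays, with Ctrl and 3 dpi overlapping. Neither passed in any comparison by the probe used. Fen1 gave a log2 fold change of -0.02 at 1 dpi (95% interval -0.19 to 0.15) and 0.11 at 3 dpi (-0.06 to 0.28), and that of Lig1 was 0.13 (-0.05 to 0.31) and -0.09 (-0.27 to 0.10). Between the time points Lig1 stood at -0.22 (95% interval -0.40 to -0.03, adjusted p 0.056).

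Ribonucleotide reductase (Rrm1 and Rrm2), thymidylate synthase (Tyms) and thymidine kinase (Tk1) supply deoxynucleotides. Rrm2 had log2 levels of 4.53, 4.33 and 4.29 in Ctrl, 4.55, 4.60 and 4.56 at 1 dpi, and 5.09, 4.94 and 4.89 at 3 dpi. That of Rrm1 was 3.12, 3.17 and 3.22 in Ctrl, 2.89, 2.90 and 2.95 at 1 dpi, and 3.48, 3.39 and 3.42 at 3 dpi. Tyms stood at log2 levels of 3.44, 3.37 and 3.33 in Ctrl, 3.10, 3.09 and 3.09 at 1 dpi, and 3.57, 3.44 and 3.43 at 3 dpi. All 3 genes were highest on the 3 dpi arrays, where only Tyms overlapped Ctrl, and at 1 dpi Rrm1 and Tyms lay below Ctrl while Rrm2 lay above it. Rrm2 had the highest log2 fold change of all members at 3 dpi, 0.59 (95% interval 0.39 to 0.78, adjusted p 0.0013), with 0.19 at 1 dpi (-0.01 to 0.38, adjusted p 0.092) and 0.40 between the time points (adjusted p 0.0063). Rrm1 was lower at 1 dpi, at -0.25 (adjusted p 0.0075), and higher at 3 dpi, at 0.26 (adjusted p 0.01), with 0.51 between the time points (adjusted p 0.00038). Rrm1 did not pass at 3 dpi with array median scaling (0.12, adjusted p 0.37) or in the deposited table (0.20, adjusted p 0.091). Tyms and Tk1 were lower at 1 dpi, at -0.29 and -0.24, and higher between the time points, at 0.39 and 0.41. At 3 dpi Tyms stood at 0.10 (95% interval -0.05 to 0.25) and Tk1 at 0.18 (0.01 to 0.35, adjusted p 0.11).

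**Figure D3:**
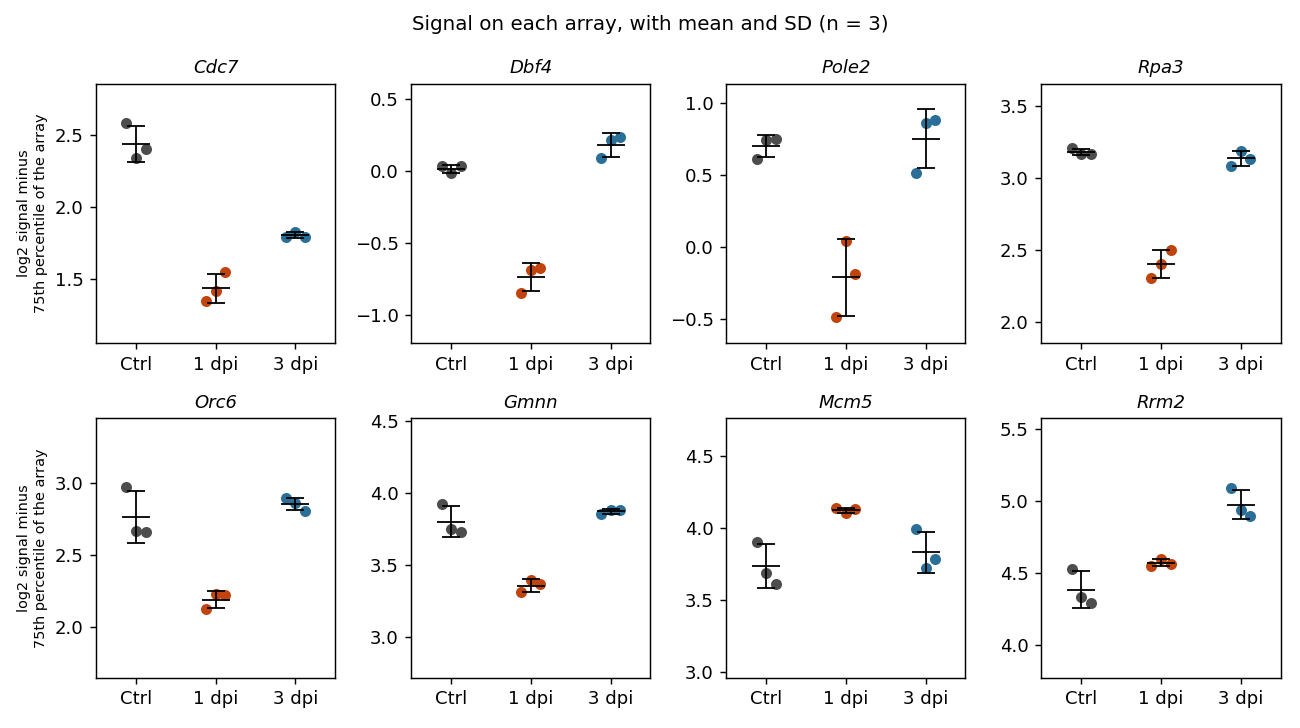
Log2 signal minus the 75th percentile of the array for 8 members in Ctrl, 1 dpi and 3 dpi; points are arrays, and the bar and whiskers are the mean and SD of 3 arrays. Cdc7, Dbf4, Pole2, Rpa3, Orc6 and Gmnn are lowest at 1 dpi, where Pole2 turns in the deposited table, Mcm5 is highest at 1 dpi and Rrm2 at 3 dpi.

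**Figure D4:**
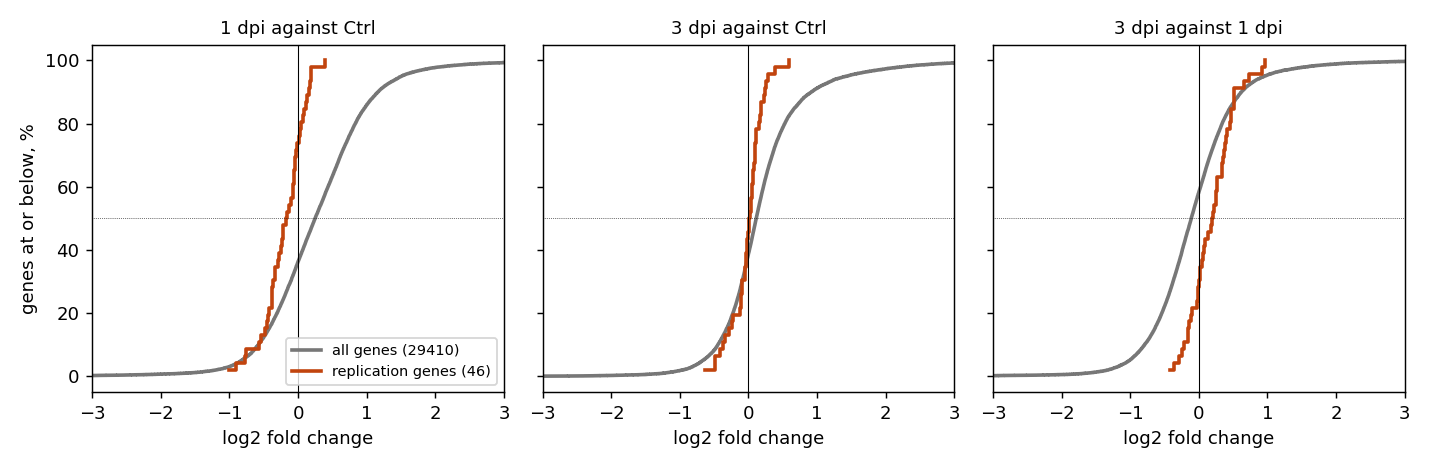
Cumulative share of genes (vertical axis) up to a given log2 fold change (horizontal axis), for the 46 members and for all 29410 genes tested, in each comparison with 75th percentile scaling. The member line is shifted to lower values at 1 dpi (median -0.17 against 0.25), crosses the line of all genes at 3 dpi (0.02 against 0.11, and -0.12 against -0.03 with array median scaling), and is shifted to higher values between the time points (0.19 against -0.11).

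Several probes measured 30 of the 46 members, and the brightest was used. In summaries chosen after the data were seen, over probes well above background on all 9 arrays, the log2 fold changes at 1 dpi spanned over 1 between the probes of 5 of these 30 genes (16.7%, against 22.6% of all genes with several such probes), which were Cdc7, Dbf4, Orc3, Orc4 and Pole2. Probes of the same gene passed in opposite directions at 1 dpi for 3 members (10% against 17.2%): Cdc7, Orc4 and Pole2. At 3 dpi this was so for 0 members (2.49% of all such genes), and between the time points for 8 (26.7% against 15%). The 50 unused member probes split into 9 above and 14 below Ctrl at 1 dpi, 1 and 9 at 3 dpi, and 12 up and 15 down between the time points, with medians of -0.13, -0.06 and -0.01. Of all probes that passed the filter, 34.8% were above and 21% below Ctrl at 1 dpi, 16% and 16.9% at 3 dpi, and 18.6% were up and 27.5% down between the time points. For these members the direction of the used probe is that of 1 stretch of the transcript. The probes of Cdc7 and Pole2 are shown because they moved in opposite directions, without capitals since no motif is marked, and levels are not compared between probes.
Cdc7 probe used: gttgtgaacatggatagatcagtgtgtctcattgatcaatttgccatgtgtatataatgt
Cdc7 other probe: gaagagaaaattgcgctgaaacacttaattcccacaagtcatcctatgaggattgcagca
Pole2 probe used: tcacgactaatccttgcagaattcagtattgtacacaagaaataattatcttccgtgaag
Pole2 other probe: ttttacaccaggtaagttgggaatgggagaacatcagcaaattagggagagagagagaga

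The other Cdc7 probe (chr5:107398228-107398287, plus strand) stood at a log2 level of -2.99, -3.19 and -3.02 in Ctrl, -2.42, -2.49 and -2.49 at 1 dpi, and -3.14, -3.34 and -3.39 at 3 dpi. It was highest on the 1 dpi arrays, at a log2 fold change of 0.60 (adjusted p 0.00099), with -0.23 at 3 dpi and -0.82 between the time points (adjusted p 0.00031). The other Pole2 probe (chr12:70322698-70322974, minus strand) stood at -2.10, -1.62 and -1.53 in Ctrl, 2.44, 2.24 and 2.30 at 1 dpi, and -0.68, -0.73 and -0.73 at 3 dpi. For this probe the 3 groups did not overlap, with log2 fold changes of 4.08 at 1 dpi (SE 0.14, adjusted p 1e-06), 1.03 at 3 dpi (adjusted p 0.0011) and -3.04 between the time points. The Pole2 probe used lies at chr12:70307465-70308864 on the same strand. The mean of the Cdc7 probes gave -0.20 at 1 dpi (adjusted p 0.048) and -0.43 at 3 dpi (adjusted p 0.0032). The other probes of Dbf4 gave 0.37 and 0.01 at 1 dpi, and between the time points -0.16 and -0.59, so where Dbf4 passed it did so by the brightest probe and not by the mean of its probes. The second probe of Gmnn on the same strand gave -0.55 at 1 dpi and 0.67 between the time points, as against 0.09 and -0.56 for a probe on the opposite strand. Some members whose used probe did not pass had other probes that did, in a list drawn up after the data were seen, all well above background on all 9 arrays. At 1 dpi these were lower for Cdc6 (-0.40), Lig1 (-0.25), Mcm3 (-0.33) and Pola2 (-0.38), and higher for Orc3 (0.91), Mcm7 and Rfc5. At 3 dpi they were lower for Dbf4 (-0.59), Gmnn (-0.46), Mcm10 (-0.51), Orc4 (-0.54 and -0.35), Orc5 (-0.42), Prim2 (-0.63) and Rpa2 (-0.38), and higher for Pole2. They were lower between the time points for Mcm7, Mcm10 (-0.37) and Orc5 (-0.62), and higher for Pole (0.37). Where the used probe passed, other probes passed the opposite way for Orc4 at 1 dpi (0.27 and 0.59), and between the time points for Orc2 (-0.58), Orc3 (-0.96 and -0.53), Orc4 (-0.92) and Prim2 (-0.78).

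**Figure D5:**
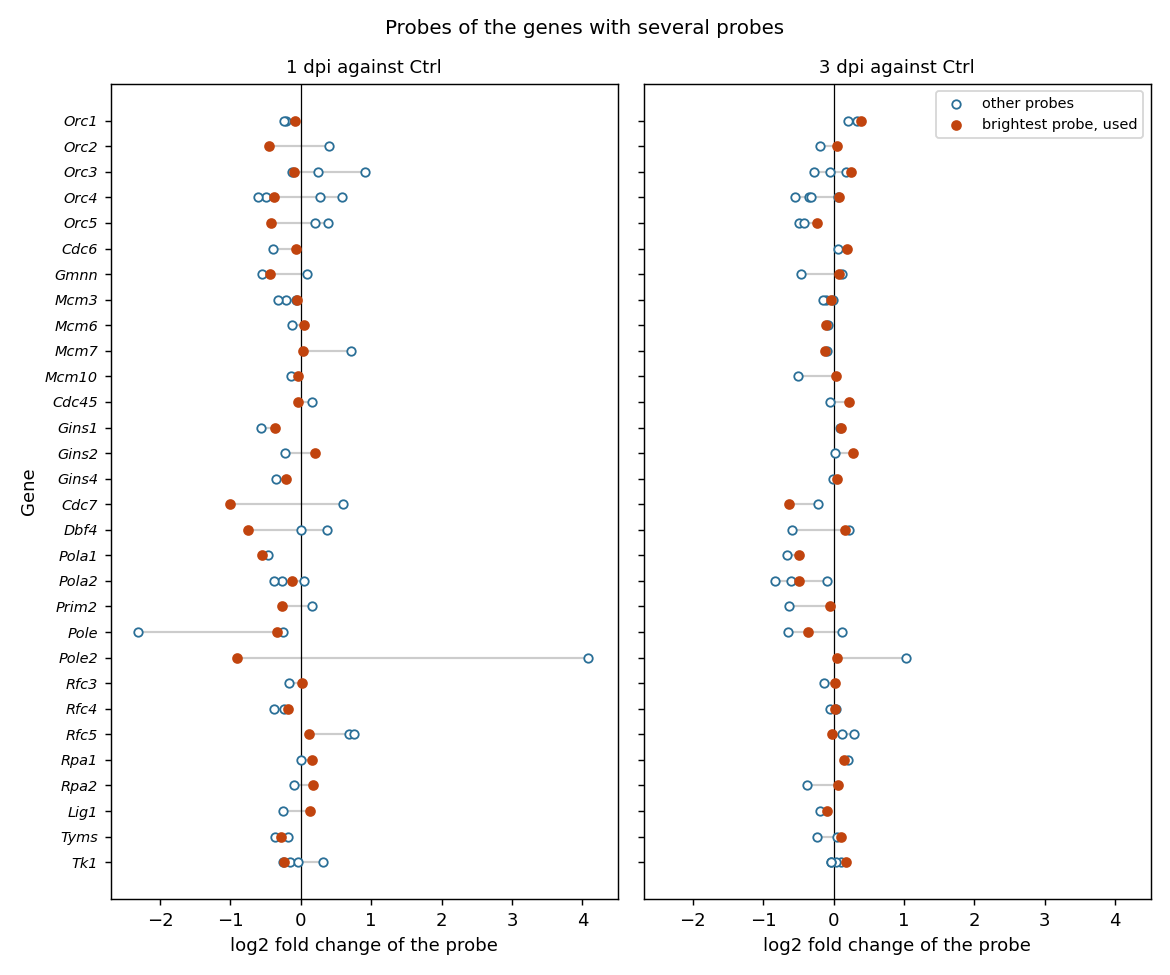
Log2 fold change at 1 dpi and at 3 dpi (horizontal axes) of each probe of the 30 members with several probes (vertical axis); filled points are the brightest probes, which were used, and open points the others. The open Pole2 point at 4.08 at 1 dpi is the farthest from 0, the open Pole point at -2.31 is of a probe well above background on 0 of the 3 arrays at 1 dpi, and the filled Pole2 point lies at -0.91, a direction that turns in the deposited table.

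The other Pole2 probe ends in 14 bases of alternating G and A, and because of this all probes with at least 6 repeats of a dinucleotide unit were looked at, after the data were seen. The 33 probes with GA or AG repeats had 2.74 as the median of their log2 fold changes at 1 dpi, from -0.49 to 4.30, and 30 were called higher. At 3 dpi their median was 0.85 and 7 were called. The 111 probes with GT or TG repeats had a median of 1.48 at 1 dpi, with 102 called higher, and 0.24 at 3 dpi, with 0 called and 44 higher at an adjusted limma p under 0.05. The 19 with CT or TC, 66 with CA or AC and 10 with AT or TA repeats had medians of -0.01, 0.01 and -0.06 at 1 dpi, with 0, 1 and 3 called higher and highest values of 0.27, 1.85 and 1.57. No probe used for a member carries such a repeat, and 1 unused member probe does. What these probes measured was not tested.

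Genes next to the members were counted under limma in the same way. With no minimum fold change, 34.8% of all genes were higher and 21.1% lower at 1 dpi. These shares were 16.9% and 15.1% at 3 dpi, and 19.8% and 24.9% between the time points. Called at 2-fold or more were 12.3% higher and 2.87% lower at 1 dpi, 6.98% and 1.82% at 3 dpi, and 3.97% and 4.82% between the time points. Of 36 other firing and fork genes, 0 were called in any comparison. With no minimum fold change, 4 of them stood higher than Ctrl and 20 lower at 1 dpi, the counts at 3 dpi were 3 and 8, and those between the time points 19 and 2. Nucleotide supply, with 24 other genes, had 0 calls, and these counts were 3 and 6 at 1 dpi, 4 and 3 at 3 dpi, and 4 and 2 between the time points. With the array median as scaling, the nucleotide supply counts were 1 and 10 at 1 dpi, 0 and 4 at 3 dpi, and 3 and 0 between the time points. Of 11 replication-coupled chromatin genes, Asf1a was called lower at 1 dpi at -1.46. Of 19 genes of the E2F and retinoblastoma family, 3 were called lower at 1 dpi (Lin9 at -1.41, Rbl1 at -1.15, E2f5 at -1.08), though other probes of Lin9 and Rbl1 reached 0.64 and 0.42. With no minimum fold change 1 of the 19 was above and 13 below Ctrl at 1 dpi, 2 and 3 at 3 dpi, and 10 up and 1 down between the time points, where Lin9 (1.17) and E2f5 (1.07) were called. The lowest of the Lin9 probes stood at -0.71 between the time points. Of 16 regulators of endoreplication, Cdkn1a (3.87) and Ccnd1 (2.15) were called higher at 1 dpi, and at 3 dpi these 2 (2.48 and 1.79) with Cdkn1c (1.04). Between the time points Cdkn1c (1.14) and Skp2 (1.05) were called higher and Cdkn1a (-1.39) lower. Among 18 mitotic genes there were 0 calls, and with no minimum fold change the higher and lower genes numbered 0 and 12 at 1 dpi, 2 and 0 at 3 dpi, and 16 and 0 between the time points. With the array median as scaling, 0 mitotic genes and 0 genes of the E2F and retinoblastoma family were higher at 3 dpi. Of 18 p53 targets 12 were called higher at 1 dpi, their log2 fold changes having a median of 1.63, and 6 at 3 dpi, with a median of 0.62, and 8 were called lower between the time points.

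With no minimum fold change, 5 of the 20 megakaryocyte markers were higher and 7 lower at 1 dpi, 8 and 3 at 3 dpi, and 9 and 3 between the time points, with medians of -0.34, -0.08 and 0.36 relative to all genes. Of all genes, 34.8% were higher and 21.1% lower at 1 dpi, 16.9% and 15.1% at 3 dpi, and 19.8% and 24.9% between the time points. With the array median as scaling, the marker counts were 2 and 8, 5 and 4, and 8 and 2. Called at 2-fold or more were 12.3% of all genes higher and 2.87% lower at 1 dpi, and 6.98% and 1.82% at 3 dpi. Of these markers 1 was called, Gfi1b at -1.19 at 3 dpi, and their summed level ran from 193.1 to 217.4 over the 9 arrays, in units of the 75th percentile, with Pf4 brightest. Markers of other bone marrow cells also moved. Of 15 erythroid markers 1 was called higher at 1 dpi (Hba-a1 at 1.34) and 0 at 3 dpi, 11 were called lower at 1 dpi and 13 at 3 dpi, 9 of the 15 were detected on each 1 dpi array, and their summed level was 139.2, 120.5 and 126.5 in Ctrl, 285, 232.2 and 226.7 at 1 dpi, and 44.3, 45.04 and 42.16 at 3 dpi, with Hba-a1 brightest. Of 13 B-cell precursor markers 1 was called higher at 1 dpi (Vpreb2 at 1.78) and 11 were called lower at each time, with a summed level of 34.87, 32.69 and 33.12 in Ctrl, 9.411, 8.705 and 8.868 at 1 dpi, and 9.549, 9.293 and 9.178 at 3 dpi, and Cd79b brightest. Of these, 11 or 12 were detected on each array after IR and all 13 on each Ctrl array. The summed level of 13 neutrophil precursor markers was 1301, 1364 and 1348 in Ctrl, 2212, 2073 and 2048 at 1 dpi, and 1461, 1316 and 1380 at 3 dpi, with Mpo brightest and 2 genes called higher at 1 dpi (S100a8 and S100a9). Of 10 stem and progenitor markers 4 were called lower at 1 dpi and 5 at 3 dpi, with Myb brightest and a summed level of 103.9, 100.2 and 97.04 in Ctrl, 69.62, 73.24 and 72.13 at 1 dpi, and 58.84, 55.77 and 52.93 at 3 dpi. Called higher at 1 dpi and at 3 dpi were 3 and 8 of 12 macrophage markers, 7 and 7 of 11 stromal markers, 3 and 5 of 8 endothelial markers and 1 and 3 of 9 T and NK cell markers, and 1 macrophage marker was called lower at 1 dpi. The macrophage sum was 78.13, 68.98 and 66.92 in Ctrl, 89.25, 84.4 and 88.44 at 1 dpi, and 175.2, 171.7 and 167.5 at 3 dpi, with Csf1r brightest. The stromal sum was 10.53, 10.11 and 10.61 in Ctrl, 51.44, 44.24 and 48.19 at 1 dpi, and 96.81, 88.05 and 95.25 at 3 dpi, with Cxcl12 brightest. The endothelial sum was 7.812, 7.349 and 7.471 in Ctrl, 12.31, 10.92 and 10.97 at 1 dpi, and 14.89, 12.77 and 12.98 at 3 dpi, with Egfl7 brightest. The T and NK cell sum was 30.57, 32.33 and 30.78 in Ctrl, 44.3, 41.42 and 41.61 at 1 dpi, and 37.2, 33.66 and 32.93 at 3 dpi, with Nkg7 brightest. The part of these cells in the member values was not tested.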

How the data were processed

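RNA of mMKs was measured on 9 single-colour Agilent arrays, 3 per group. The deposited array files hold fluorescence intensity that the authors obtained with Agilent Feature Extraction 10.7.1.1, background-subtracted within each array, with its other flags of spot quality. The deposited log2 values have a line for each gene name, their normalization is not stated, and the medians are 5.84, 5.84 and 5.83 in Ctrl, 5.80, 5.80 and 5.79 at 1 dpi, and 5.86, 5.86 and 5.87 at 3 dpi. Of 27275 names 27068 are on the array, and for 27050 the values tie to 1 probe within 0.1 on the log2 scale after quantile normalization of the same arrays, which settles the scale and direction. For the 46 members they tie to the probe used here for 18 and to another probe for 28. Of 62976 spots 59305 were not controls and gave 56605 probes, 20 of them without a usable spot on an array. Probes were named through RefSeq (32994) or by the array file (23611), probes not well above background in every array of any group were left out, and the brightest probe stood for a gene. The 75th percentile of each array, on the log2 scale, was 10.03, 10.62 and 10.66 in Ctrl, 9.33, 9.45 and 9.43 at 1 dpi, and 10.37, 10.55 and 10.53 at 3 dpi, and was subtracted. limma 3.58.1 in R 4.3.3 (data handling by data.table, version 1.17.8) fitted all 9 arrays with a mean for each group, two-sided, with 7.59 degrees of freedom for the members, Benjamini-Hochberg over all genes tested, an adjusted p under 0.05 and a minimum fold change of 2. Sequences and plots were made with Python 3.11.15 and matplotlib 3.10.9. Alternatives were other scalings, filters, probe choices, blocks, tests (the methods state a Student's t-test), the deposited table and leaving out each array, 24 settings in all. The steps were also run on simulated data, and no outcome of that run is given here. No column of values per sample was left unused (0). Members and lists were chosen with earlier results of these data known. Named genes were 21 members: in each of the 9 role groups the gene with the largest absolute log2 fold change at 1 dpi and that at 3 dpi, plus the 8 genes with the largest between the time points. The erythroid marker Hbb-bs is not named on the array.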

Additional observations from a re-analysis of the deposited data

Results flagged for a closer look

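The difference between the 1 and 3 dpi effects, which share Ctrl and so reduce to 3 dpi against 1 dpi, was tested with limma, and 27 members passed at an adjusted p under 0.05, 23 of them higher (19.8% of all genes tested) and 4 lower (24.9%). These are listed because the effect differed between the time points. The log2 fold change from 1 to 3 dpi was 0.96 for Pole2, 0.92 for Dbf4, 0.73 for Rpa3, 0.66 for Orc6, 0.51 for Gmnn, 0.51 for Rrm1, 0.51 for Orc2, 0.47 for Gins1, 0.46 for Orc1, 0.46 for Orc4, 0.41 for Tk1 and 0.40 for Rrm2. It was 0.39 for Tyms, 0.37 for Cdc7, 0.35 for Orc3, 0.34 for Pcna, 0.33 for Mcm4, 0.27 for Rfc1, 0.26 for Gins4, 0.25 for Cdc6, 0.22 for Prim2, 0.20 for Prim1 and 0.19 for Rfc4. It was below 0 for 4 genes, at -0.25 for Pold1, -0.29 for Mcm5, -0.36 for Pola2 and -0.42 for Rfc2. In the deposited table, which rests on other probes of these genes, Pole2 (-3.05), Orc2 (-0.54), Orc3 (-0.76) and Prim2 (-0.72) turned. Other probes well above background on all 9 arrays also passed in the opposite direction for Cdc7 (-0.82), Dbf4 (-0.59), Gmnn (-0.56) and Orc4 (-0.92), and with the mean of probes Cdc7 stood at -0.23 and Dbf4 at 0.06 (adjusted p 0.61). A signal also appeared in a probe that the comparisons do not use, the other Pole2 probe, which stood 4.08 above Ctrl at 1 dpi and 1.03 above Ctrl at 3 dpi on the log2 scale. The causes were not tested.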

How the results depend on the processing

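Each value follows its setting, and the causes of the differences were not tested. Of all genes, 1667 were called at 1 dpi, 1147 at 3 dpi and 1088 between the time points after background modelling with quantile normalization, 16443, 9416 and 13125 with no minimum fold change, and 4489 between the time points with no filter on dim probes. Members at least 2-fold higher at 1 dpi numbered 1 in the deposited table and 1 with the mean of probes. Members at least 2-fold lower at 1 dpi numbered 0 after quantile normalization, 0 with the mean of probes, 0 with slide or scan as a block, 2 with the array median and 2 in the deposited table. At 3 dpi 1 was lower in the deposited table, and between the time points 1 was higher with the array median, 1 higher and 1 lower in the deposited table and 1 lower with the mean of probes. With no minimum fold change, 3 were higher and 22 lower at 1 dpi, 6 and 7 at 3 dpi, and 23 and 4 between the time points. Of these, higher members at 1 dpi numbered 0 with the array median (23.7% of all genes), 1 with no filter and 5 with the mean of probes. They numbered 1 with the replicate number as a block, 7 by an unadjusted Student test (31.2% of all genes) and 5 by that test after Benjamini-Hochberg. At 3 dpi the higher numbered 1 with the array median (11.3% of all genes), 2 in the deposited table (11.8%) and 3 with only the 2 groups compared. The lower numbered 11 with the mean of probes. Between the time points the lower numbered 0 with the array median (18.8% of all genes), 9 in the deposited table (16.4%) and 11 with the mean of probes. For the settings without a percentage here, the share of all genes is not given. The member median relative to all genes at 1 dpi was -0.25 after quantile normalization, -0.24 after background modelling, -0.28 in the deposited table, -0.56 with no filter, -0.34 for genes well above background on all 9 arrays, and -0.28 with slide or scan as a block. At 3 dpi it was -0.0315 after background modelling, -0.16 with the mean of probes and 0.042 with slide or scan as a block. Between the time points it was 0.18 after quantile normalization, 0.19 after background modelling, 0.17 in the deposited table, 0.39 with no filter and 0.18 with the mean of probes. Among the genes named by the rule set beforehand, reversed values were 0.37 for Orc2 and 4.03 for Pole2 at 1 dpi and -0.54 for Orc2 and -3.05 for Pole2 between the time points in the deposited table. With the mean of probes they were 1.58 for Pole2 at 1 dpi and -1.04 for Pole2, -0.038 for Orc2 and -0.23 for Cdc7 between the time points, and with the array median -0.056 for Rpa1 at 1 dpi. Other members that passed and turned under another scaling or in the deposited table were Rpa2 at 1 dpi (-0.047 with the array median and -0.45 in the deposited table), Prim2 (0.11 at 1 dpi and -0.72 between the time points) and Orc3 (-0.27 at 3 dpi and -0.76 between the time points), the last 2 genes in the deposited table. The deposited table rests on another probe for Rpa2, Prim2 and Orc3. Ctrl replicate 1 is alone on its slide and in its scan, so those blocks give the contrast without it. Leaving out each array in turn gave ranges. At 1 dpi they were 3599 to 5378 genes called, 0 to 0 members 2-fold higher, 0 to 1 lower (0 without Ctrl replicate 1 or 1 dpi replicate 1), 1 to 4 higher and 19 to 22 lower with no minimum fold change, a relative median of -0.47 to -0.28 (-0.28 without Ctrl replicate 1), and -1.06 to -0.93 for Cdc7. At 3 dpi they were 2363 to 2775 genes, 0 to 0 members higher and 0 to 0 lower, 3 to 6 and 6 to 8 with no minimum fold change, a relative median of -0.14 to 0.049 (0.049 without Ctrl replicate 1), and -0.69 to -0.56 for Cdc7. Between the time points they were 2269 to 2881 genes, 0 to 1 members higher and 0 to 0 lower, 19 to 24 and 2 to 6 with no minimum fold change, a relative median of 0.28 to 0.34, and 0.82 to 1.09 for Pole2. Over 37 results of single members and 851 values, 777 kept their direction and side of the threshold, 65 kept their direction but no longer passed and 9 reversed. With the replicate number as a block, 4273, 2498 and 2494 genes were called, and the relative medians were -0.42, -0.09 and 0.30. Members higher with no minimum fold change numbered 1, 5 and 22 in place of 3, 6 and 23. At 1 dpi Mcm5 was the 1 member still higher, so Rpa1 (adjusted p 0.06) and Rpa2 no longer passed. Cdc6 no longer passed at 3 dpi (adjusted p 0.068). Whether the numbers pair the arrays of different groups cannot be decided from 3 arrays a group. Correlations of same-numbered arrays, taken over deviations from the group mean, ran from -0.11 to 0.13 over 9 pairs. Of the 9 arrays, 4 correlated best with an array of their own number. Signal over background limits dim probes, and all 46 members were well above it on all 9 arrays.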
